A study of Mus musculus with 6 samples.

Results

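The 10 genes of matrix turnover, Mmp2, Mmp8, Mmp9, Mmp12, Mmp13, Mmp14, Mmp19, Mmp27, Timp1 and Timp2, are described here in resting and interleukin-4 (IL-4) treated mouse macrophages. They are the 8 matrix metalloproteinase (MMP) genes and 2 tissue inhibitor of metalloproteinases (TIMP) genes of a given list, found by symbol, and all 10 were among the 25124 genes of the deposited table. Bone marrow cells from 8-week-old wild-type C57BL/6 mice were cultured for 7 days in 20 ng/ml macrophage colony-stimulating factor (M-CSF), which turns marrow progenitors into bone marrow-derived macrophages. The M0 group (3 libraries) then stayed in 20 ng/ml M-CSF, and the M2 group (3 libraries) received 10 ng/ml IL-4 in addition to the same M-CSF, with RNA taken at 4 h in both groups. The labels do not say whether the replicates came from separate mice, so that p-values measure the spread between these libraries, which may be technical. The cells were a culture grown in M-CSF, without the matrix, stromal cells or other leukocytes of a tissue.

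MMPs are zinc-dependent endopeptidases that are made as inactive proenzymes and, once activated, cut collagens, elastin, fibronectin and many non-matrix proteins. TIMPs bind the active site of MMPs and block it. Macrophages are known above all for MMP12, the macrophage elastase, and for pericellular proteolysis by the membrane-anchored MMP14, while TIMP2 has a dual role, since it inhibits MMPs and also bridges MMP14 to the proenzyme of MMP2 so that the latter can be activated.

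The libraries held 16913187 to 19019904 reads in genes, recovered from the deposited TPM (a level scaled for transcript length and for the depth of the library). M0 replicate 2 stood apart from its group: the chi-square of read counts per degree of freedom was 9.52 and 10.7 against the other M0 libraries, 2.31 between those, and 1.54 to 1.73 among M2 libraries. All 10 macrophage markers were tested (4 rose, 4 fell and 2 did not pass), with a summed level of 17008 to 18153 TPM in M0 and 16104 to 16478 TPM in M2. Among all 11235 tested genes 17.7% rose and 45.3% fell. All 10 IL-4 response markers rose, from a summed 20.0 to 21.6 TPM to 9056 to 9439 TPM. Of these, 5 reached 1 TPM in the M2 libraries alone, so that only the other 5 were tested (and rose) when any 1 M2 library was left out, and 10 of 10 rose with no filter on low values.

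After 4 h of IL-4, transcripts of the elastase Mmp12, the collagenase Mmp13 and the gelatinase Mmp9 were higher in level (2.06-fold, 2.11-fold and 2.09-fold in mean TPM), as was the inhibitor gene Timp2 (1.85-fold), and Mmp19 rose 1.3-fold. The membrane-type protease gene Mmp14 fell, with a mean TPM 1.70-fold lower in M2. Mmp2, Mmp8, Mmp27 and Timp1 did not pass the test. Thus 5 of the 10 members rose, 1 fell and 4 did not pass, at an adjusted p under 0.05 by limma-trend on log2 of TPM plus 1. Of all 11235 genes tested, 62.9% passed, 17.7% as rises and 45.3% as falls, so that 6 of 10 passing is close to the background. The libraries of the 2 groups did not overlap for 7 of the 10 members, 5 of them higher and 2 lower in M2, against 69.4% of all tested genes, 19.6% higher and 49.8% lower. The median log2 fold change was 0.25 over the members and -0.15 over all tested genes. After median-ratio scaling, which sets that overall median to 0.00, 28.8% of genes rose and 28.2% fell, and among the members 6 rose and 1 fell (7 of 10, against 56.9% of all genes). Limma-voom on recovered reads and limma on the authors' log2 values each passed 7 members (61.9% and 59.1% of all genes). In RNA from whole cultures, fewer cells of a type and less RNA per cell cannot be told apart.

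**Figure D1:**
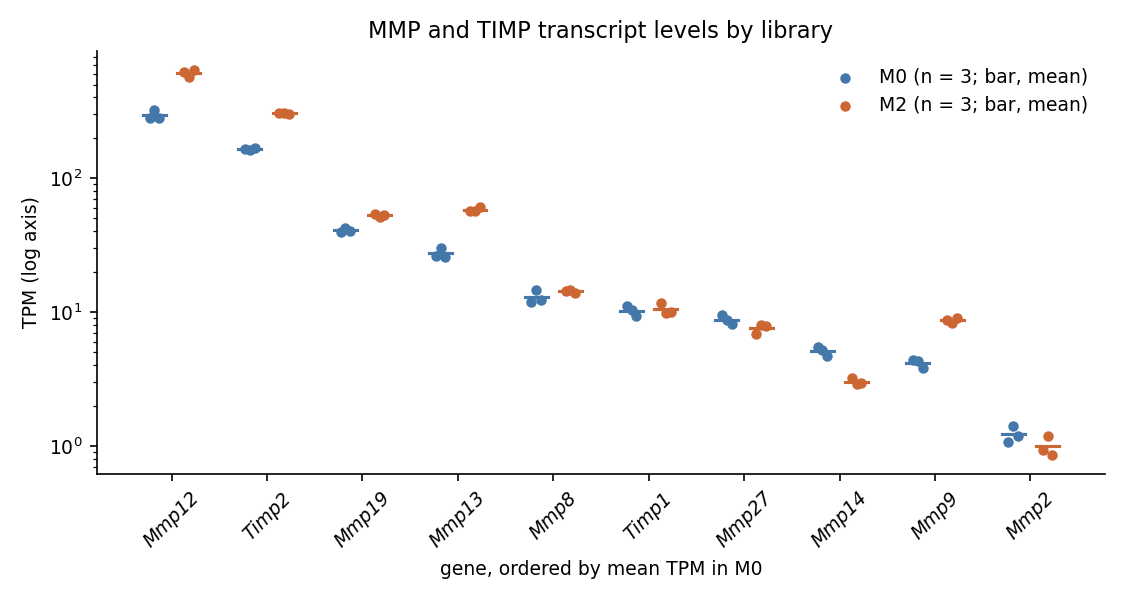
TPM (log axis) of each member in the 3 M0 (blue) and 3 M2 (orange) libraries, with genes ordered by their mean in M0; points are libraries and bars are group means. Levels run from about 1 TPM for Mmp2 to 565 to 642 TPM for Mmp12 in M2, and the M2 points lie above all M0 points for Mmp12, Timp2, Mmp19, Mmp13 and Mmp9.

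Levels of the members differed widely on the TPM scale. In M0 the order of mean TPM was Mmp12, Timp2, Mmp19, Mmp13, Mmp8, Timp1, Mmp27, Mmp14, Mmp9 and Mmp2, and the only neighbours in it whose libraries overlapped were Timp1 and Mmp27. In M2 Mmp13 stood above Mmp19 and Mmp9 stood above Mmp27 and Mmp14, with no overlap between neighbours in the order. Mmp12 alone made up 74.7% ± 0.543 of the summed TPM of the 8 proteases in M0 and 80.7% ± 0.824 in M2 (SD, n = 3 each). Timp2 made up 94.1% ± 0.501 and 96.7% ± 0.314 of the summed TPM of the 2 inhibitors.

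Mmp12 encodes macrophage metalloelastase, which cuts elastin and is made mainly by macrophages. Its transcript (NM_008605, mm10 chromosome 9, positions 7347374 to 7360461, plus strand, 10 exons) stood at 283, 324 and 283 TPM in the M0 libraries and at 623, 565 and 642 TPM in the M2 libraries. The 3 M2 libraries were all higher than the 3 M0 libraries, and the highest M0 value came from replicate 2. The fitted log2 fold change was 1.04 (SE 0.06, limma adjusted p = 3e-07). With 14523 to 37816 reads per library, Mmp12 was the most deeply counted member.

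Mmp13 encodes collagenase 3, the main interstitial collagenase of rodents. Its transcript (NM_008607, chromosome 9, positions 7272514 to 7283333, plus strand, 10 exons) had 26.4, 30.2 and 25.6 TPM in M0 and 56.5, 56.7 and 60.6 TPM in M2. Again no M0 library reached the M2 range, and the log2 fold change was 1.06 (SE 0.07, limma adjusted p = 3.1e-07). The ratio of Mmp12 to Mmp13 within a library, which does not depend on scaling between libraries, was 10.7, 10.7 and 11 in M0 and 11, 9.95 and 10.6 in M2. The ratio thus overlapped between the groups while both levels rose (two-sided exact permutation test p = 0.4). Of all tested genes, those with the profile nearest to Mmp13 over the 6 libraries were Gpr65, Pparg and Mllt3. Their Euclidean distances were 0.097, 0.1 and 0.109 on the centred log2 scale, with Mmp12 at rank 5 (distance 0.112). With 6 libraries in 2 groups, a small distance mostly reflects a like log2 fold change (1.09, 1.03 and 1.01 for Gpr65, Pparg and Mllt3). M0 replicate 2 was also the highest M0 library for each, and shared control was not tested.

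**Figure D2:**
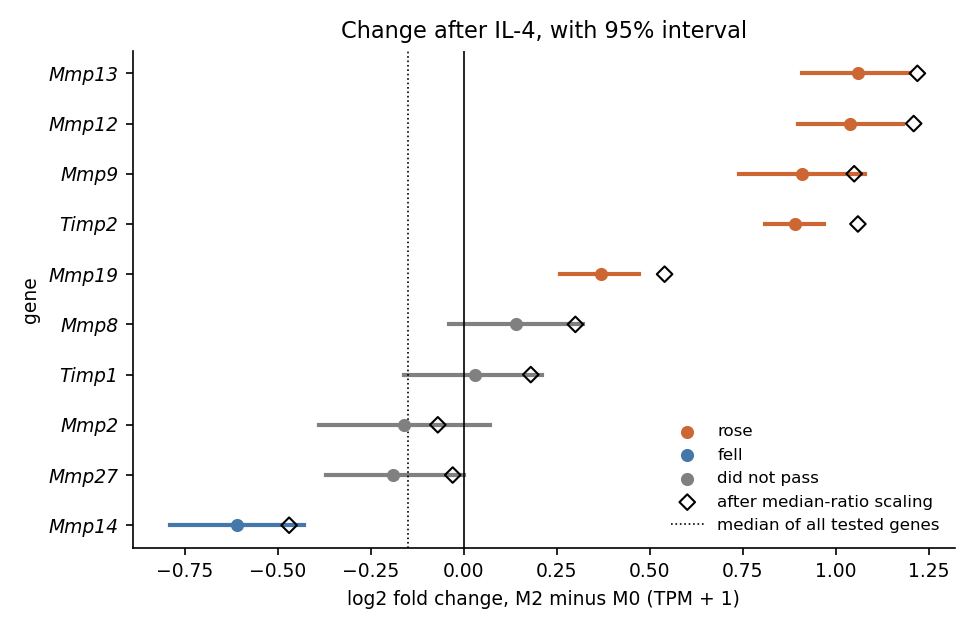
Log2 fold change of each member, M2 minus M0, on log2 of TPM plus 1, with its 95% interval; orange rose, blue fell and grey did not pass, open diamonds are the values after median-ratio scaling and the dotted line is the median of all tested genes (-0.15). The intervals of Mmp13, Mmp12, Mmp9, Timp2 and Mmp19 lie above 0 and that of Mmp14 below it, and scaling moves each member to the right.

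Mmp12 and Mmp13 belong to a cluster of 10 MMP genes within 427 kb of chromosome 9 (positions 7272514 to 7699585). Of its 4 tested genes, Mmp12 and Mmp13 rose and Mmp8 and Mmp27 did not pass (62.9% of all tested genes passed, 17.7% as rises). Mmp8, which encodes the neutrophil collagenase, begins 198 kb beyond the end of Mmp12 (NM_008611, positions 7558429 to 7568486, 10 exons). It had 11.9, 14.7 and 12.2 TPM in M0 and 14.4, 14.7 and 13.8 TPM in M2, with M0 replicate 2 at the level of the M2 libraries. Its log2 fold change was 0.14 (95% interval -0.04 to 0.32, limma adjusted p = 0.15), and it passed without M0 replicate 2 (0.23, adjusted p = 0.0037 by limma) and after median-ratio scaling (0.30, adjusted p = 0.0052 by limma). The authors' deposited table gives it a log2 fold change of 0.31 with an adjusted p of 0.0043.

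Mmp27 lies 2.91 kb beyond Mmp8 (NM_001310717, positions 7571396 to 7581885, 10 exons). It had 9.49, 8.66 and 8.12 TPM in M0 and 6.80, 8.05 and 7.88 TPM in M2. The M2 libraries were all below the M0 libraries by a narrow margin, but the log2 fold change of -0.19 (95% interval -0.37 to 0.00) did not pass (limma adjusted p = 0.076), and it was -0.03 after median-ratio scaling, where the overall shift is removed. Without M0 replicate 3 it passed narrowly, at -0.23 (limma adjusted p = 0.048). Within a library, Mmp12 was 23.0 ± 0.877 times as abundant as Mmp8 in M0 and 42.8 ± 4.06 times in M2 (SD, n = 3). The 2 sets of ratios did not overlap (two-sided exact permutation test p = 0.1, the smallest that 3 against 3 allows). Mmp8 stayed within 11.9 to 14.7 TPM, while Mmp12 went from at most 324 TPM in M0 to at least 565 TPM in M2. This outcome was thus given by the levels and repeats the rise of Mmp12.

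Of the other cluster genes, Mmp1a, Mmp1b, Mmp3, Mmp7 and Mmp20 had no read in any library. A count of 0 allows up to 3 reads, or at most 0.0643 TPM for Mmp20 and 0.198 TPM for Mmp7, for counting error only. Mmp10, the stromelysin 2 gene, was below the tested range, with 37 reads over the M0 libraries and 12 over the M2 libraries. The nearest tested genes on either side, added after their values were seen, are Dcun1d5 beyond Mmp13, which fell by 0.33 on the log2 scale, and Tmem123 beyond Mmp7, which rose by 0.42 (limma adjusted p = 0.00038 and 2.6e-05).

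**Figure D3:**
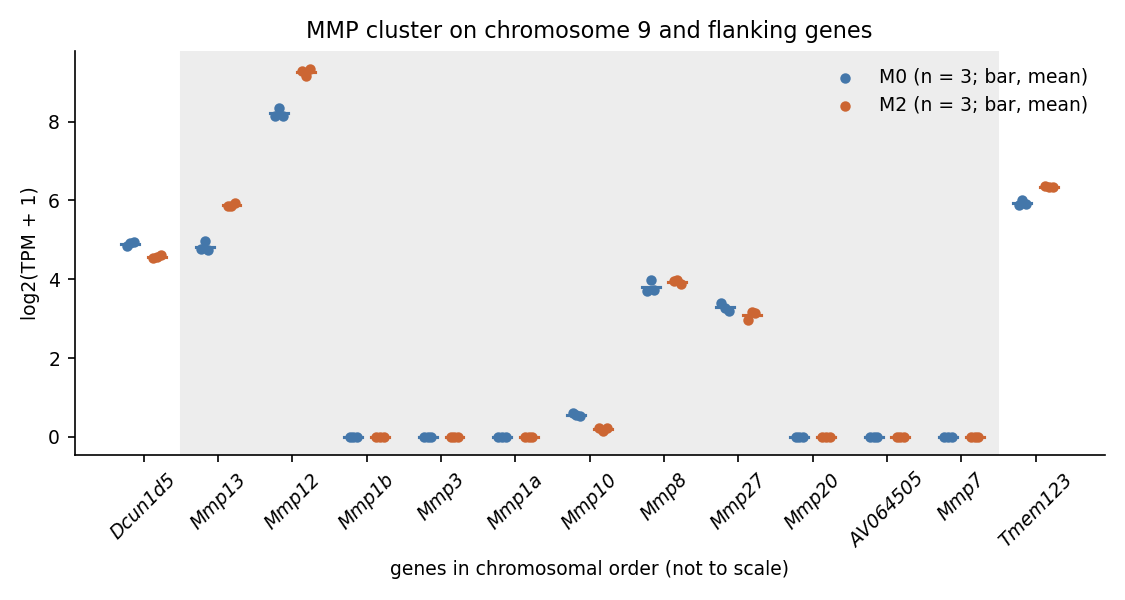
Log2 of TPM plus 1 for the MMP cluster on chromosome 9 (shaded) and its flanking genes in chromosomal order, not to scale; points are the 3 M0 (blue) and 3 M2 (orange) libraries and bars are means. Mmp13 and Mmp12 at one end are higher in M2, Mmp8 and Mmp27 are near equal in both groups, and 5 MMP genes lie at 0.

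The 250 bases before the start of the deposited transcript are shown for the 4 tested genes of this cluster, which share a locus. The pair Mmp12 and Mmp13 rose, and the pair Mmp8 and Mmp27 did not pass. This difference in call depends on the setting, since Mmp8 passed as a rise after median-ratio scaling and without M0 replicate 2. The sequences are from RefSeq on GRCm38.p6 (mm10), 5′ to 3′ on the gene's strand, and capitals mark the AP-1 motif TGANTCA and the ETS-type motif AGGAAG or its reverse complement.
Mmp13, chr9:7272264-7272513, + strand: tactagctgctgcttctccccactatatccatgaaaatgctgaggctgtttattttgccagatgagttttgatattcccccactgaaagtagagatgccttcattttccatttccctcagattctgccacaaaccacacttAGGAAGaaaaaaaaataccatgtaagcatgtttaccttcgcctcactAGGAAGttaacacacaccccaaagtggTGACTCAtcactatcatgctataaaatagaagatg
Mmp12, chr9:7347124-7347373, + strand: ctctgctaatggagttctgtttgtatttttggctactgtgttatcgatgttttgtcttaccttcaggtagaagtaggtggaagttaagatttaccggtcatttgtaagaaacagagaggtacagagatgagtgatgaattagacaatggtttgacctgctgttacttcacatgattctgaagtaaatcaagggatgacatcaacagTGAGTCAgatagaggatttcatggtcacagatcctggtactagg
Mmp8, chr9:7558179-7558428, + strand: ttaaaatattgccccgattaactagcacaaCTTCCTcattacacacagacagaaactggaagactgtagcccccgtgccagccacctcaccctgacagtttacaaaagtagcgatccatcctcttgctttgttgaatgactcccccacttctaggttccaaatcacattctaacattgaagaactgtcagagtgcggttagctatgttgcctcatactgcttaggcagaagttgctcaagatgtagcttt
Mmp27, chr9:7571146-7571395, + strand: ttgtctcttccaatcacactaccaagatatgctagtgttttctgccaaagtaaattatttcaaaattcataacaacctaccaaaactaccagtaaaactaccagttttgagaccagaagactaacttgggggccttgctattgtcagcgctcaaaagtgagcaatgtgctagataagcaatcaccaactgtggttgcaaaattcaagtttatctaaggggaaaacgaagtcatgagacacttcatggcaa
The AP-1 motif, bound by Fos and Jun family factors, occurred once before Mmp13 (bases 35 to 29 before the start) and once before Mmp12 (bases 44 to 38). It was in no window of Mmp8, Mmp27, Mmp14, Timp1 or Timp2, and of these Timp2 also rose. The RefSeq table lists a second start for Mmp12, at position 7344397, whose window holds no AP-1 motif and 1 AGGAAG on the reverse strand. Of 32841 windows of this length in the promoter table, 6.75% held the AP-1 motif on either strand. AGGAAG occurred at 2 places before Mmp13, at bases 109 to 104 and 62 to 57, and once on the reverse strand before Mmp8. It also occurred before Mmp14 (bases 209 to 204), which fell, and at 2 places before Timp1 (bases 175 to 170 and 99 to 94), which did not pass, and 29.5% of all windows held it. The palindromes of STAT factors, TTC and GAA with 4 bases (the type of STAT6, which IL-4 activates) or 3 bases between them, were not found in the windows of these 4 genes or of Mmp14, Timp1 and Timp2 (5.85% and 7.02% of all windows). Windows were found for 7 of the 10 members, without Mmp2, Mmp9 and Mmp19. These matches describe letters in a window and not binding.

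Mmp9 encodes gelatinase B, which cuts denatured collagen and basement membrane collagen. The transcript (NM_013599, chromosome 2, positions 164948219 to 164955850, plus strand, 13 exons) had 4.38, 4.27 and 3.83 TPM in M0 and 8.78, 8.27 and 8.98 TPM in M2. The groups were far apart relative to their spread (4.16 ± 0.292 and 8.67 ± 0.364 TPM, SD, n = 3), with a log2 fold change of 0.91 (SE 0.08, limma adjusted p = 2.8e-06). Because this scale adds 1 TPM, it understates the change of a gene at this level, and a pseudocount of 0.1 gave 1.04. Limma-voom on recovered reads, which also scales libraries in another way, gave 1.11. Mmp2, the gene of gelatinase A, which cuts the same kind of substrate, was the lowest member. It had 1.07, 1.41 and 1.19 TPM in M0 and 0.938, 1.18 and 0.858 TPM in M2 (42 to 65 reads per library; NM_008610, chromosome 8, positions 92827297 to 92853421, 13 exons). The groups overlapped, and the log2 fold change of -0.16 (95% interval -0.39 to 0.07) did not pass (limma adjusted p = 0.2).

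Mmp19 encodes a broad-spectrum protease of basement membrane proteins. Its transcript (NM_001164197, chromosome 10, positions 128790910 to 128800827, plus strand, 9 exons) had 39.9, 42.1 and 40.0 TPM in M0 and 54.0, 51.3 and 53.1 TPM in M2. The rise was small and regular, with no overlap between groups and a log2 fold change of 0.37 (SE 0.05, limma adjusted p = 6.9e-05). An antisense gene, Gm47093, overlaps an exon of Mmp19, and the headers name no strand setting, so that reads of the 2 genes cannot be told apart there.

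Mmp14 encodes membrane-type 1 MMP, a transmembrane collagenase of the cell surface that activates the proenzyme of MMP2. It was the only member that fell. Its transcript (NM_008608, chromosome 14, positions 54431598 to 54442456, plus strand, 10 exons) had 5.50, 5.23 and 4.69 TPM in M0 and 3.19, 2.92 and 2.95 TPM in M2. All M2 libraries were below all M0 libraries, with a log2 fold change of -0.61 (SE 0.08, limma adjusted p = 0.0001), and the fall passed after median-ratio scaling as well (-0.47).

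The inhibitors differed from each other. Timp2 (NM_011594, chromosome 11, positions 118301061 to 118355411, minus strand, 5 exons) had 164, 161 and 167 TPM in M0 and 305, 307 and 302 TPM in M2. Its spread was the smallest among the members that passed relative to its level, and its log2 fold change was 0.89 (SE 0.04, limma adjusted p = 1.5e-08). Timp1, the soluble inhibitor often induced with MMP9 and a partner of its proenzyme (NM_001044384, chromosome X, positions 20870166 to 20874737, plus strand, 6 exons), had 11, 10.3 and 9.36 TPM in M0 and 11.6, 9.75 and 9.96 TPM in M2. The groups overlapped, with a log2 fold change of 0.03 (95% interval -0.16 to 0.21, limma adjusted p = 0.8) that was -0.03 without M0 replicate 3, -0.05 without M2 replicate 1 and 0.18 after median-ratio scaling.

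Ratios within a library were used to set proteases against inhibitors without any scaling between libraries. The summed TPM of the 8 proteases was 397 ± 29.1 in M0 and 755 ± 42.2 in M2, and that of Timp1 and Timp2 was 174 ± 2.51 and 315 ± 3.08 (SD, n = 3 each). The means were thus 1.90-fold and 1.81-fold higher in M2, without overlap between groups (two-sided exact permutation test p = 0.1 each, the smallest that 3 against 3 allows). The ratio of the sums was 2.18, 2.51 and 2.14 in M0 and 2.42, 2.23 and 2.53 in M2, overlapping between the groups (two-sided exact permutation test p = 0.4). Mmp12 made up 74.7% of the protease sum in M0 and 80.7% in M2, and Timp2 made up 94.1% and 96.7% of the inhibitor sum. The sums, their tests and their ratio thus mostly repeat Mmp12 and Timp2 and are no separate result about the family. Transcript sums weight each gene by its level and say nothing of enzyme activity.

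Timp2 and Mmp14, whose proteins form the complex that activates the MMP2 proenzyme, moved in opposite directions. The ratio of Timp2 to Mmp14 was 29.8, 30.8 and 35.7 in M0 and 95.6, 105 and 102 in M2, a 3.15-fold difference in means. The ratio of Mmp9 to Timp1 was 0.400, 0.413 and 0.409 in M0 and 0.755, 0.848 and 0.901 in M2, and that of Timp2 to Mmp12 was 0.580, 0.499 and 0.592 in M0 and 0.490, 0.544 and 0.470 in M2. The first 2 ratios did not overlap between groups (two-sided exact permutation test p = 0.1 each, the smallest possible with 3 against 3), whereas the third did (p = 0.2, exact). For Timp2 to Mmp14 the outcome was given by the levels, since Timp2 was higher and Mmp14 lower in every M2 library. For Mmp9 to Timp1 it was given as well and repeats the rise of Mmp9. Mmp9 went from at most 4.38 TPM in M0 to at least 8.27 TPM in M2, while Timp1 stayed within 9.36 to 11.6 TPM. Over the 11 sums, shares and ratios computed, Benjamini-Hochberg adjusted p-values ran from 0.138 to 0.4.

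**Figure D4:**
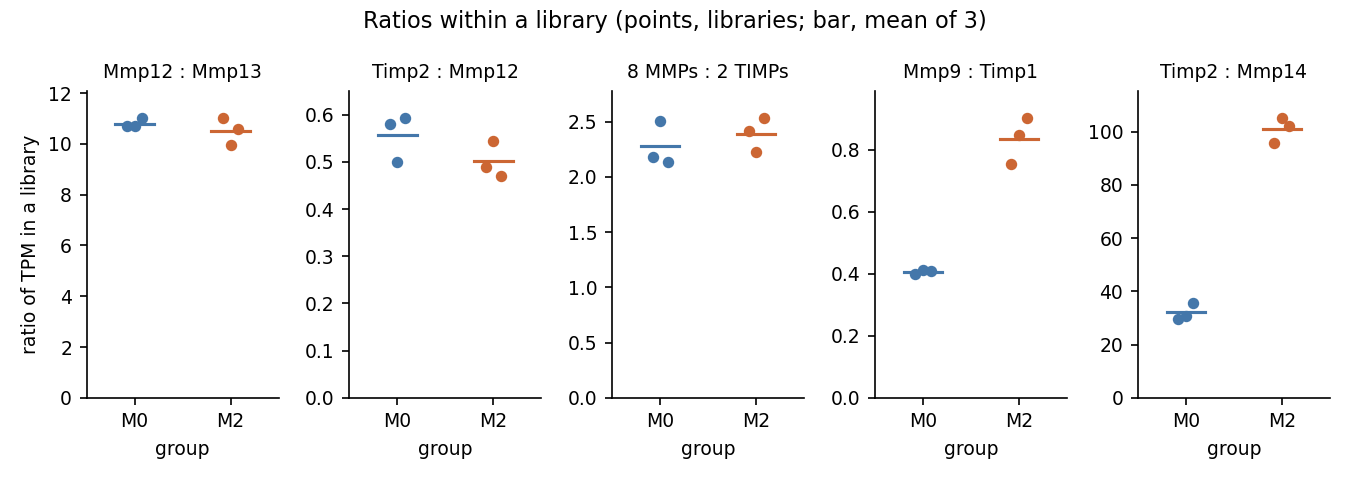
Ratio of TPM values within each library for 5 pairs or sums, by group; points are the 3 libraries, bars are means and every axis starts at 0. The first 3 ratios overlap between M0 and M2, while Mmp9 to Timp1 and Timp2 to Mmp14 are higher in every M2 library.

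Of the other 17 MMP and TIMP genes, 15 were below the tested range, 5 of them with no read and 10 with at most 0.966 TPM in any library (Mmp11). The remaining pair passed the test, as did 62.9% of all tested genes. At a minimum of 0.1 TPM, 8 of the 17 were tested, 1 rose and 2 fell, and with no filter 1 fell and none rose. Timp3, the inhibitor that is held in the extracellular matrix, fell from 1.79, 2.23 and 1.63 TPM to 0.775, 0.742 and 0.900 TPM, with a log2 fold change of -0.67 (limma adjusted p = 0.00024). It was thus opposite in direction to Timp2, its M2 values lay below 1 TPM, and leaving out any 1 M0 library left it short of the minimum for testing. An antisense gene overlaps exons of each, Syn3 for Timp3 and BC029722 for Mmp24. Mmp24, a membrane-type MMP gene, rose 1.21-fold, from 2.91 ± 0.214 to 3.52 ± 0.0603 TPM (limma adjusted p = 0.04), and missed the threshold when M0 replicate 2 or 3 or any M2 library was left out (limma adjusted p from 0.05 to 0.11).

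Of 11 tested genes on a list of 25 that activate, inhibit or clear MMPs, 3 rose, 7 fell and 1 did not pass (4 rose and 6 fell after median-ratio scaling). Among all tested genes 17.7% rose and 45.3% fell (28.8% and 28.2% after scaling). The median log2 fold change of the 11 was -0.39 against -0.15 over all tested genes. Plau, the urokinase that turns plasminogen into the MMP-activating protease plasmin, had a log2 fold change of -2.41. Lrp1, the endocytic receptor that clears MMPs and their complexes, had -1.21. Furin, the convertase that activates proenzymes such as that of MMP14, rose 1.49-fold, and Cd44, a docking site for MMP9 and MMP14, rose 1.41-fold. Bsg, which encodes the MMP inducer basigin, rose 1.16-fold.

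Of 8 tested ADAM and ADAMTS genes, the related proteases that shed membrane proteins or cut proteoglycans, 2 rose, 3 fell and 3 did not pass (median log2 fold change -0.08), and after scaling 3 rose and 1 fell. Adam9 rose with 0.45. Adam19 rose from 0.607 ± 0.0314 to 1.45 ± 0.0495 TPM (SD, n = 3 each), 2.39-fold in TPM but 0.61 on the log2 scale with 1 TPM added and 1.3 by limma-voom. Adam33 fell from 2 ± 0.388 to 0.721 ± 0.107 TPM, with log2 fold changes of -0.80 and, by limma-voom, -1.40. Adam19 reached 1 TPM only in the M2 libraries and Adam33 only in the M0 libraries, so that each was tested only through the group where it is high. Adam15 and Adam17 fell by 0.28 and 0.23, and neither passed after median-ratio scaling (-0.11 and -0.06). Of 12 tested matrix substrates, 3 rose, 7 fell and 2 did not pass (median -0.31), and after scaling 3 rose and 6 fell. Of all tested genes 62.9% passed, 17.7% as rises and 45.3% as falls, and after scaling 28.8% rose and 28.2% fell. Fn1, the fibronectin gene, rose with a log2 fold change of 3.65, the syndecan gene Sdc4 with 1.12 and the thrombospondin gene Thbs1 with 0.86. Col18a1, Sdc1 and Spp1 fell by 1.26, 1.21 and 0.59. Of 8 tested genes of cathepsins and collagen uptake, 5 rose, 1 fell and 2 did not pass (median 0.68), and after scaling 7 rose and none fell. The collagen receptor gene Mrc1 rose with 1.33, the collagenolytic cathepsin gene Ctsk with 1.26 and Mfge8, which encodes a bridging protein in collagen and cell uptake, with 0.95. The fall of Ctsh (-0.11) turned to 0.06 after median-ratio scaling.

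Several members are also known from other cells, and markers of these were read in the same libraries. Neutrophils carry MMP8 and MMP9. Of 14 neutrophil markers 7 were tested, 1 fell (Lcn2, -0.32, which did not pass after scaling) and 6 did not pass. Among all tested genes 62.9% passed, 17.7% as rises and 45.3% as falls. The summed level of the 14 markers was 41.4 to 48.9 TPM in M0 and 39.0 to 47.5 TPM in M2. The 2 ranges overlapped. With a minimum of 0.1 TPM, 12 of the 14 were tested, 2 rose and 1 fell, with no filter 1 rose and none fell, and with a library left out 0 to 2 fell. The highest of them, S100a9 and S100a8, stood at 15 ± 1.34 and 14.6 ± 2.78 TPM in M0 and 13.9 ± 0.904 and 13.1 ± 2.41 TPM in M2 (SD, n = 3 each). The part of neutrophils in the levels of Mmp8 and Mmp9 was not tested. Fibroblasts are a main source of MMP2, MMP14 and TIMP3. Of 12 fibroblast and stromal markers 4 were tested and all 4 fell, against 45.3% of all tested genes (Acta2 -0.65, Col1a1 -0.41, Postn -0.38 and Col1a2 -0.25, the last not after scaling), with a median of -0.40 against -0.15 and summed levels of 16.6 to 17.4 TPM in M0 and 11.8 to 12.9 TPM in M2. With a minimum of 0.1 TPM, 9 of the 12 were tested, 5 fell and none rose, and with no filter 1 of 12 fell. With a library left out 3 or 4 fell, and Postn and Col1a2 did not pass in the authors' deposited table. The part of stromal cells in the fall of Mmp14 and Timp3 was not tested.

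Osteoclasts, the bone-resorbing cells of the same lineage, make MMP9 and MMP14 with cathepsin K. Of 8 tested osteoclast markers 5 rose, 1 fell and 2 did not pass (7 rose and 1 fell after scaling), against 62.9% of all tested genes passing and 17.7% rising (56.9% and 28.8% after scaling), and the summed level of the 10 on the list was 588 to 620.1 TPM in M0 and 1045 to 1063 TPM in M2. Ocstamp and Dcstamp, genes of macrophage fusion, rose with log2 fold changes of 2.42 and 2.02, and Acp5, the tartrate-resistant phosphatase gene, with 2.15. Atp6v0d2, a proton pump subunit gene, rose 3.83-fold, Clcn7 fell by 0.31 on the log2 scale, and Tcirg1 stood at 357 TPM in both groups (0.17 on the log2 scale, passing, after scaling). Calcr, the calcitonin receptor gene that marks mature osteoclasts, had no read in any library. The part of these genes in the rise of Mmp9 was not tested.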

How the data were processed

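Polyadenylated RNA from 100 ng of total RNA was sequenced for 3 M0 and 3 M2 libraries, per the labels' protocols. HOMER 4.11.1, the mm10 build, DESeq2, STAR and bcl2fastq are named in the submitters' processing notes, and their settings are not given in the sources used here. Per the file headers, the authors counted reads in exons with 1 transcript per gene and deposited TPM. A second table, also deposited by the authors, holds log2 values of an unnamed transformation, log2 fold changes and p-values (M2 minus M0 in sign).

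Groups and replicate numbers come from the sample titles. The 3 rows shifted by commas were realigned. TPM times transcript length gave whole reads within 0.1 read for 99.5% to 99.9% of nonzero values, and the step of 1 read in a 1-kb transcript was 0.0610 to 0.0700 TPM. The deposited TPM summed to 542749 to 553186 per library. Recovered reads made up 89.8% to 90.9% of the header tag totals.

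Genes with at least 1 TPM in at least 3 libraries were tested with limma-trend (limma 3.58.1, R 4.3.3, robust, two-sided) on log2 of TPM plus a pseudocount of 1, with group as the only term and Benjamini-Hochberg adjustment over all 11235 genes. Python 3.11.15 made tables and figures. The code of the test was tried on simulated data in which few genes changed and all libraries had the same spread. That setting differs from these data, so the trial lends no support to the calls made here. Alternatives were pseudocounts of 0.1 and 5, other filters, median-ratio scaling (factors 0.941 to 1.09), a replicate block, limma-voom on recovered reads, limma on the authors' log2 values, and each library left out. Named were all members and, from each other list, up to 3 rises and 3 falls of the largest size, the 2 most abundant markers of other cell types, the 3 profiles nearest to Mmp13, and the genes of the chromosome 9 cluster. Only counts are given for the macrophage and IL-4 lists. A gene that the rule would name is not reported here. The members and lists were chosen with earlier results of these data known. Exon numbers are those of GENCODE M21. Since the groups hold 3 libraries each, no exact test could fall below p = 0.1.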

Additional observations from a re-analysis of the deposited data

How the results depend on the processing

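Across 14 alternatives, Mmp9, Mmp12, Mmp13, Mmp19, Timp2 and Mmp14 kept their direction and passed in each, with log2 fold changes of 0.58 to 1.11, 1.00 to 1.21, 0.96 to 1.22, 0.34 to 0.54, 0.87 to 1.06 and -0.75 to -0.34. Members past the threshold numbered 6 or 7. Mmp8 passed under limma-voom (0.20, adjusted p = 0.04 by limma) and on the authors' log2 values (0.28), besides the settings named above. Over all genes, 7071 passed, 3687 without a filter on low values, where 25124 genes were tested, and 6082 to 7276 with a library left out. After median-ratio scaling 50.6% of the calls were rises, against 28%. Directions turned for Timp1 without M0 replicate 3 (-0.03) and without M2 replicate 1 (-0.05), in a range of -0.05 to 0.07 over the libraries left out. On median-scaled TPM and on the authors' log2 values, Ctsh turned to 0.06 and 0.06, S100a9 to 0.06 and 0.04, S100a8 to 0.01 and 0.01 and Tcirg1 to 0.17 and 0.16; Tcirg1 was also 0.05 under limma-voom and -0.02 to 0.04 with a library left out, above 0 without M0 replicate 1 (0.04), M2 replicate 2 (0.01) or M2 replicate 3 (0.01). The cause was not tested. Deviations from the group means correlated at -0.043 to 0.005 between equal replicate numbers and at -0.045 to 0.051 between unequal ones. With so few libraries, these values cannot tell whether equal numbers mark paired samples. With the replicate block 6916 genes (61.6%) and 6 members passed, and Mmp24 missed the threshold (adjusted p = 0.068 by limma). Depth limits Mmp2 most, with 42 to 65 reads per library.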
